A study of Sus scrofa with 6 samples.

Results

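The genes described here are the machinery of mitosis: the kinases and cyclins that drive entry into cell division, the proteins of the spindle and kinetochore, the checkpoint, and the proteins that fold and separate chromosomes. They were taken as a list of 40 gene symbols grouped by function, which was drawn up with earlier results of these data known. The table of counts holds 35670 genes, and 38 of the 40 symbols had a row in it. No row carried the symbol AURKA or PTTG1, and these genes were not analysed here. All 38 passed the filter on low counts, which left 17920 genes to be tested. The material was ampulla, the wide part of the oviduct where egg and sperm meet, from pigs (Sus scrofa) at an early luteal stage, as the corpora lutea develop, or at a post-ovulatory stage. There were 3 libraries of each stage, made from total RNA of whole tissue with a stranded kit for polyadenylated RNA, and the labels name no treatment, genotype or age. The labels name no sort of cells, so each value averages over secretory and ciliated epithelium, stroma, smooth muscle, vessels and immune cells. The labels do not state that the replicates are different animals, and the p-values below therefore reflect sample-to-sample spread that may be technical.

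Dividing cells transcribe mitotic genes in a wave that peaks as they enter mitosis, under the control of the MuvB, MYB and FOXM1 factors, and switch the wave off when they leave the cycle. Cyclin B with CDK1 starts mitosis, kinetochores tie chromosomes to spindle microtubules, the checkpoint holds anaphase until every chromosome is tied, and the anaphase-promoting complex then destroys cyclin B. In an adult tissue in which few cells divide, the level of these transcripts is therefore low and is commonly read as a measure of how much division is under way. The oviduct epithelium turns over with the cycle of the ovary. Its multiciliated cells have left the cell cycle, and in mouse they are known to reuse parts of the mitotic machinery while they amplify their centrioles.

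Libraries held between 7370723 and 30954222 counts, and 3 counts, the floor taken for each, corresponded to between 0.0957 and 0.405 CPM (counts scaled to library size with the TMM method). Some libraries stood apart from the rest. The first principal component, with 55.9% of the variance, placed early luteal replicate 2 at 176 and the other 5 libraries between -51.0 and 2.39. The second, with 18.3%, placed post-ovulatory replicate 1 at 85.1, early luteal replicate 3 at -68.2 and the others between -20.6 and 17.1. Summed epithelial markers (6 of 7 had a row) were between 1492 and 2056 CPM in early luteal libraries and between 1384 and 2050.2 CPM in post-ovulatory libraries, and those of ciliated cells (11 of 12) between 2189 and 2621 CPM in early luteal libraries and between 1546 and 3059 CPM in post-ovulatory libraries.

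As a group, mitotic genes were at a low level in 5 of the 6 libraries and at a high level in 1, post-ovulatory replicate 1. The 38 genes summed to 417, 548 and 312 CPM in early luteal replicates 1, 2 and 3, against 2319, 394 and 392 CPM in post-ovulatory replicates 1, 2 and 3. Post-ovulatory replicates 2 and 3 thus lay inside the range of the early luteal libraries, and the sums of the stages overlapped. HMGB2, SMC2 and CENPE held a large part of the counts in these sums. The other 35 genes summed to 223, 153 and 110.3 CPM in early luteal tissue, against 1637, 199 and 207 CPM in post-ovulatory tissue. The median gene stood at 4.50, 2.23 and 1.49 CPM in early luteal tissue, against 40.5, 4.66 and 5.18 CPM in post-ovulatory tissue. In bulk tissue, fewer dividing cells and less of these RNAs per cell cannot be told apart.

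Every one of the 38 genes had a negative log2 fold change (early luteal over post-ovulatory), with a median of -2.58, or 5.99-fold lower, between -4.08 for CDC20 and -0.07 for AURKB. The median over all 17920 genes was -0.03, and 51.8% of them were negative. By the quasi-likelihood test of edgeR none of the 38 passed an adjusted p of 0.05: the Benjamini-Hochberg adjusted p ran from 0.571 for KIF2C to 0.989 for CENPE, and over all genes edgeR called 0 (0%). At an unadjusted p under 0.05, 21 of the 38 (55.3%) were lower, where the share of all genes was 3.54%, and 0 were higher, where it was 3.57%. DESeq2 called KIF2C lower (log2 fold change -2.88, adjusted p = 0.00588), and 0.493% of the 17862 genes to which it gave a p-value. It gave none to 12 of the 38, CDC20, NCAPG, TOP2A and CDK1 among them, so its count of 1 leaves these unassessed. The count of 21 became 3 without early luteal replicate 2, where 4.22% of all genes were lower, and 3 without early luteal replicate 3 (2.75%). Without post-ovulatory replicate 1 it became 2 (1 lower, 1 higher), where 1.42% of all genes were lower and 1.79% higher.

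**Figure D1:**
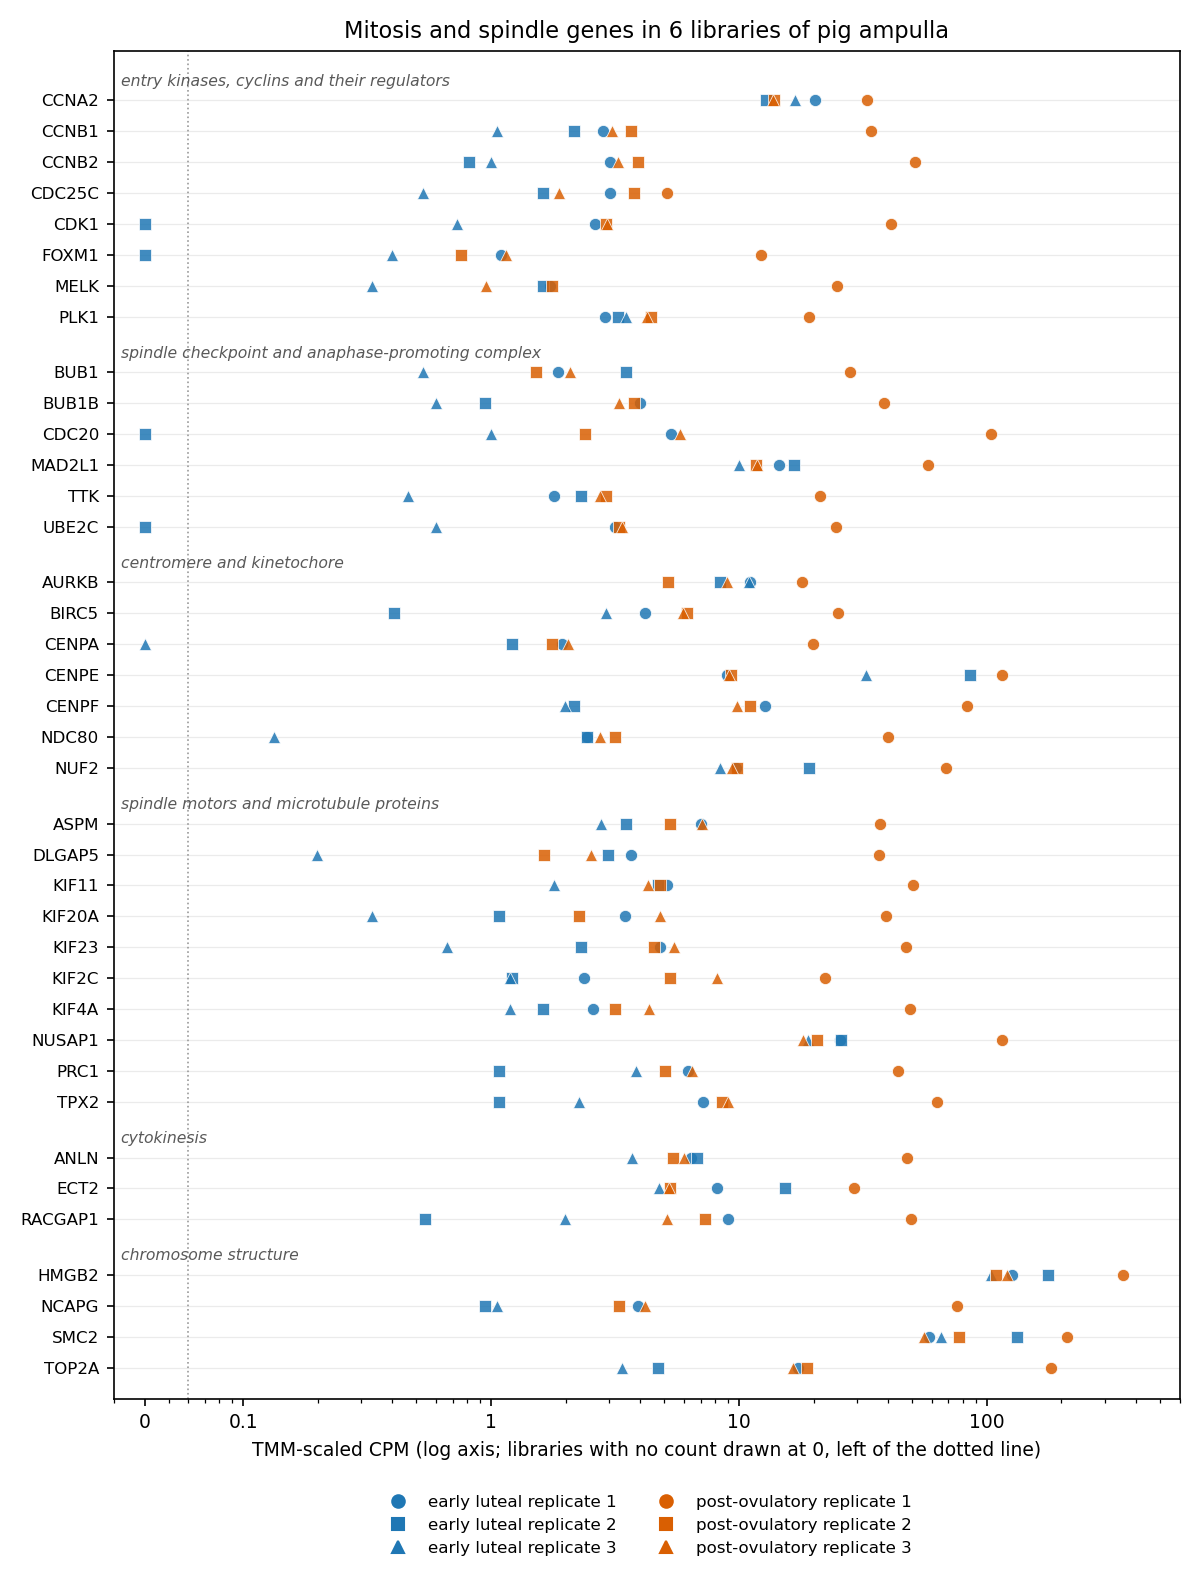
Level of each of the 38 genes in the 6 libraries, in TMM-scaled CPM on a log axis, with genes grouped by role; each point is 1 library, blue for early luteal and orange for post-ovulatory. Post-ovulatory replicate 1 (orange circles) is the highest library in all 38 rows, and the other 5 libraries lie close together or overlap in most of them.

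Among the 8 kinases, cyclins and regulators of mitotic entry, 4 were lower at an unadjusted p under 0.05 in edgeR, where 3.54% of all genes were. The median log2 fold change of the 8 was -2.83. CCNB1, the B-type cyclin that activates CDK1, stood at 2.83, 2.16 and 1.06 CPM in early luteal tissue, against 34.2, 3.65 and 3.06 CPM in post-ovulatory tissue. The stages did not overlap, but the gap between the highest early luteal library and the lowest post-ovulatory one was small beside the distance of post-ovulatory replicate 1 from both (log2 fold change -2.76 ± 1.004, SE; edgeR, adjusted p = 0.680). CCNB2, the second B-type cyclin, had 3.02, 0.811 and 0.995 CPM in early luteal tissue, against 51.2, 3.91 and 3.25 CPM in post-ovulatory tissue, again with 1 high library and no overlap (-3.56 ± 1.17). CDK1, the kinase they activate, stood at 2.63, 0 and 0.730 CPM in early luteal tissue, against 41.2, 2.90 and 2.93 CPM in post-ovulatory tissue. The absence of a count in early luteal replicate 2 allows up to 0.405 CPM, and the highest early luteal library lay just below both low post-ovulatory ones.

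PLK1, a kinase needed for centrosome maturation and spindle assembly, was the most even gene within early luteal tissue, at 2.89, 3.24 and 3.52 CPM, against 19.2, 4.41 and 4.24 CPM in post-ovulatory tissue. Its stages did not overlap either, and its log2 fold change was -1.53 ± 0.69. FOXM1, the transcription factor that activates late cell cycle genes, stood at 1.09, 0 and 0.398 CPM in early luteal tissue, against 12.3, 0.756 and 1.15 CPM in post-ovulatory tissue, and MELK, a kinase of the same expression wave, at 1.73, 1.62 and 0.332 CPM in early luteal tissue, against 24.8, 1.76 and 0.957 CPM in post-ovulatory tissue. In both, early luteal replicate 1 lay level with post-ovulatory replicates 2 and 3, and only post-ovulatory replicate 1 stood above it by more than a small margin. CDC25C, a phosphatase that releases CDK1 from inhibition, had a small excess in post-ovulatory replicate 1, at 5.12 CPM beside 3.78 CPM in post-ovulatory replicate 2. CCNA2, the A-type cyclin of S phase and early mitosis, averaged 16.6 ± 3.70 CPM in early luteal tissue and 20.2 ± 11.0 CPM in post-ovulatory tissue (SD, n = 3 each), a difference within the spread of the replicates.

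The 6 genes of the spindle checkpoint and the anaphase-promoting complex had a median log2 fold change of -2.79. At an unadjusted p under 0.05 in edgeR 4 were lower (3.54% of all genes). CDC20, which activates the anaphase-promoting complex, had the largest difference of the 38 genes. It stood at 5.33, 0 and 0.995 CPM in early luteal tissue, against 104, 2.39 and 5.77 CPM in post-ovulatory tissue. Post-ovulatory replicate 2 lay below early luteal replicate 1, so the stages overlapped, and the log2 fold change of -4.08 had an SE of 1.61. UBE2C, the ubiquitin-conjugating enzyme of that complex, had 3.15, 0 and 0.597 CPM in early luteal tissue, against 24.7, 3.28 and 3.38 CPM in post-ovulatory tissue, without overlap. TTK, BUB1 and BUB1B, kinases and a pseudokinase of the checkpoint, had log2 fold changes of -2.57 ± 0.998, -2.45 ± 1.20 and -3.01 ± 1.15, and in TTK alone of these the stages did not overlap. MAD2L1, the checkpoint protein that binds CDC20, averaged 13.7 ± 3.38 CPM in early luteal tissue and 27.2 ± 26.7 CPM in post-ovulatory tissue.

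The 7 centromere and kinetochore genes had log2 fold changes between -3.21 and -0.07. At an unadjusted p under 0.05 in edgeR 3 were lower (3.54% of all genes). CENPF, a large kinetochore protein, stood at 12.7, 2.16 and 1.99 CPM in early luteal tissue, against 83.0, 11.09 and 9.85 CPM in post-ovulatory tissue. BIRC5, the survivin subunit of the chromosomal passenger complex, had 4.18, 0.405 and 2.92 CPM in early luteal tissue, against 25.1, 6.17 and 5.96 CPM in post-ovulatory tissue. In BIRC5 the stages did not overlap, whereas in CENPF early luteal replicate 1 lay above post-ovulatory replicates 2 and 3. NDC80 and NUF2 encode partners of the same microtubule-binding complex, yet NDC80 had a log2 fold change of -3.21 ± 1.30 and NUF2 of -1.24 ± 0.79. NUF2 stood at 9.77, 19.2 and 8.42 CPM in early luteal tissue, against 68.6, 9.83 and 9.38 CPM in post-ovulatory tissue. CENPA, the histone variant that marks centromeres, had no count in early luteal replicate 3, which allows up to 0.199 CPM, and averaged 1.05 ± 0.975 CPM in early luteal tissue and 7.93 ± 10.4 CPM in post-ovulatory tissue.

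AURKB and CENPE had the log2 fold changes closest to 0. AURKB, the kinase of the chromosomal passenger complex, stood at 11.11, 8.38 and 11.0 CPM in early luteal tissue, against 18.0, 5.17 and 8.93 CPM in post-ovulatory tissue. Post-ovulatory replicates 2 and 3 were lower than early luteal replicates 1 and 3, and the log2 fold change of -0.07 ± 0.52 became 0.51 without post-ovulatory replicate 1. CENPE, the kinetochore motor that moves chromosomes to the spindle equator, stood at 8.93, 85.7 and 32.6 CPM in early luteal tissue, against 115, 9.32 and 9.15 CPM in post-ovulatory tissue. Early luteal replicates 2 and 3 were far above the other early luteal library and above post-ovulatory replicates 2 and 3. Without post-ovulatory replicate 1, CENPE alone of the 38 genes was higher in early luteal tissue at an unadjusted p under 0.05 (log2 fold change 2.17 ± 0.88; edgeR, adjusted p = 0.985), where 1.79% of all genes were. Early luteal replicate 2 also had the highest level of 27.0% of all tested genes, and its part in this result was not tested.

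The spindle motors and microtubule proteins held 8 of the 21 genes that were lower at an unadjusted p under 0.05 in edgeR. The group had 10 genes, and 3.54% of all genes were lower at that threshold. KIF2C, a kinesin that takes microtubules apart at the kinetochore, had the lowest p of the 38. It stood at 2.38, 1.22 and 1.19 CPM in early luteal tissue, against 22.3, 5.29 and 8.16 CPM in post-ovulatory tissue. All 3 post-ovulatory libraries were more than 2 times as high as every early luteal library, and the log2 fold change was -2.88 ± 0.70 (edgeR, unadjusted p = 0.00301, adjusted p = 0.571). KIF4A, a kinesin that binds chromosomes and the central spindle, had 2.57, 1.62 and 1.19 CPM in early luteal tissue, against 49.1, 3.15 and 4.34 CPM in post-ovulatory tissue (-3.38 ± 1.08). TPX2, which activates the Aurora A kinase and nucleates spindle microtubules, had 7.13, 1.08 and 2.25 CPM in early luteal tissue, against 62.7, 8.57 and 9.02 CPM in post-ovulatory tissue (-2.91 ± 0.98). The stages did not overlap in either, and in TPX2 early luteal replicate 1 came close to post-ovulatory replicates 2 and 3.

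KIF23, the kinesin of the centralspindlin complex, stood at 4.82, 2.30 and 0.663 CPM in early luteal tissue, against 47.2, 4.54 and 5.45 CPM in post-ovulatory tissue, and KIF11, the motor that pushes spindle poles apart, at 5.14, 4.73 and 1.79 CPM in early luteal tissue, against 50.6, 4.79 and 4.31 CPM in post-ovulatory tissue. In both genes early luteal replicate 1 lay above at least 1 post-ovulatory library. DLGAP5, a protein that stabilises microtubules near chromosomes, spread widely within early luteal tissue, at 3.66, 2.97 and 0.199 CPM, against 36.8, 1.64 and 2.52 CPM in post-ovulatory tissue. Its log2 fold change of -2.59 ± 1.33 became 0.10 without post-ovulatory replicate 1. NUSAP1, which bundles spindle microtubules, stood at 25.6, 25.8 and 19.0 CPM in early luteal tissue, against 115, 20.7 and 18.1 CPM in post-ovulatory tissue, so that 5 libraries lay close together and 1 was high. The remaining 3 of the group, the kinesin KIF20A, the microtubule crosslinker PRC1 and the pole protein ASPM, had log2 fold changes between -3.22 and -1.89.

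The 3 genes of cytokinesis had a median log2 fold change of -1.81. None of them reached an unadjusted p under 0.05 in edgeR, where 3.54% of all genes were lower. ANLN, a scaffold of the contractile ring, averaged 5.63 ± 1.67 CPM in early luteal tissue and 19.8 ± 24.3 CPM in post-ovulatory tissue. RACGAP1, the partner of KIF23 in centralspindlin, averaged 3.86 ± 4.56 CPM in early luteal tissue and 20.6 ± 24.9 CPM in post-ovulatory tissue. For ECT2, the exchange factor that centralspindlin recruits, the means were 9.45 ± 5.43 CPM in early luteal tissue and 13.2 ± 13.8 CPM in post-ovulatory tissue. ECT2 stood at 15.4 CPM in early luteal replicate 2, and its log2 fold change of -0.50 became 0.82 without post-ovulatory replicate 1.

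The 4 genes of chromosome structure formed unlike pairs, with log2 fold changes of -3.77 and -3.08 in NCAPG and TOP2A, and of -0.43 and -0.53 in SMC2 and HMGB2. NCAPG, a subunit of the condensin I complex that compacts mitotic chromosomes, stood at 3.92, 0.946 and 1.06 CPM in early luteal tissue, against 75.7, 3.28 and 4.18 CPM in post-ovulatory tissue. Post-ovulatory replicate 1 was 18.1 times the next library, the largest such ratio of the 38 genes, and early luteal replicate 1 lay within the range of the other post-ovulatory libraries. TOP2A, the topoisomerase that untangles sister chromatids, had 17.3, 4.73 and 3.38 CPM in early luteal tissue, against 182, 18.8 and 16.5 CPM in post-ovulatory tissue (a log2 fold change of -3.08 ± 1.05). Early luteal replicate 1 was again level with post-ovulatory replicates 2 and 3, while early luteal replicates 2 and 3 were lower.

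SMC2, the condensin core subunit that also serves condensin II in interphase, stood at 58.3, 133 and 65.1 CPM in early luteal tissue, against 211, 77.1 and 55.8 CPM in post-ovulatory tissue. HMGB2, a chromatin protein of dividing cells that is also made in other cells, stood at 126, 177 and 103 CPM in early luteal tissue, against 355, 109 and 121 CPM in post-ovulatory tissue. In both genes early luteal replicate 2 was the second highest library, and the stages overlapped widely (SE of the log2 fold change 0.54 for SMC2 and 0.48 for HMGB2). Without post-ovulatory replicate 1 the log2 fold changes became 0.34 for SMC2 and 0.22 for HMGB2.

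**Figure D2:**
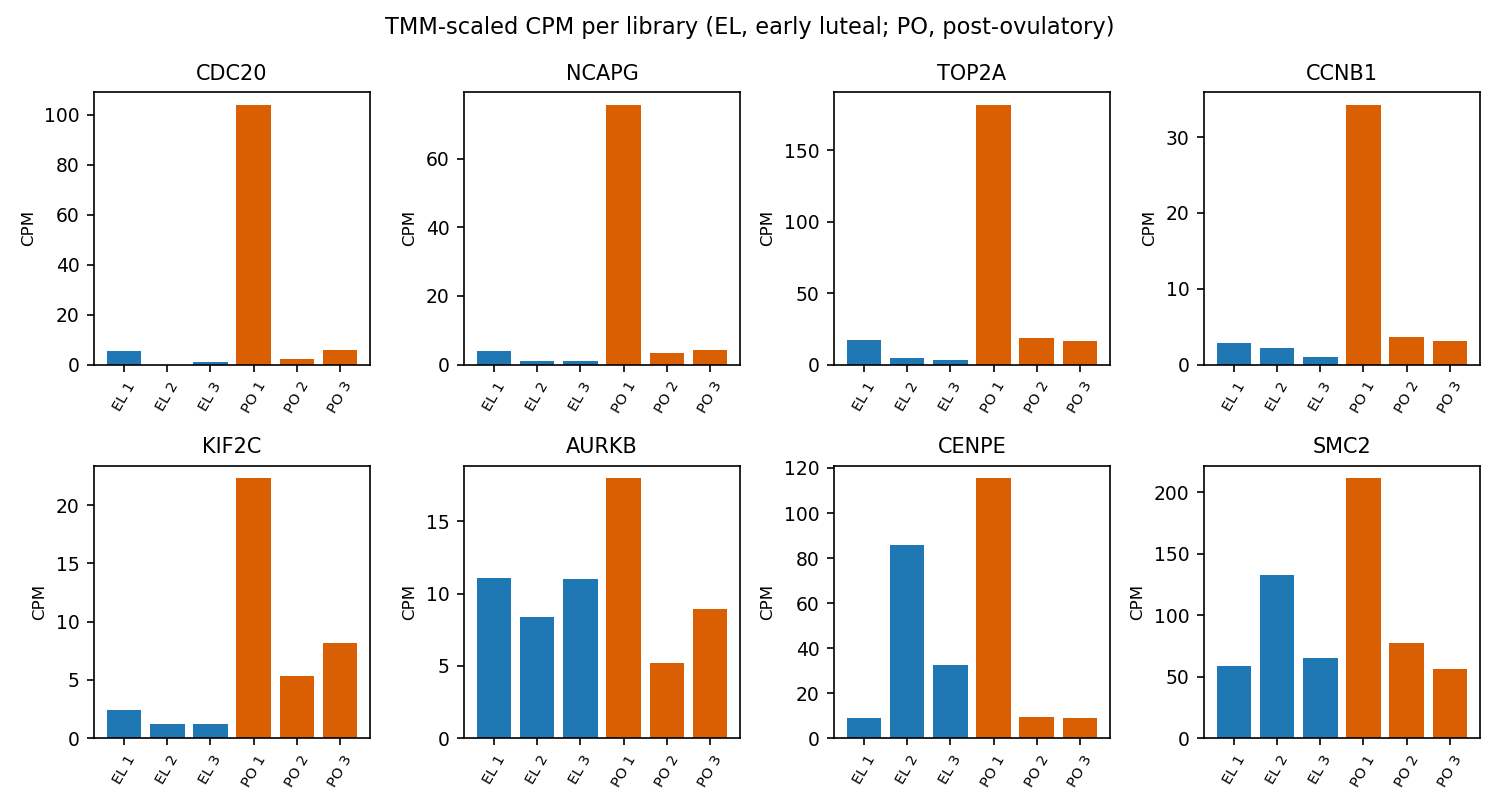
Level of 8 of the genes in each library, in TMM-scaled CPM on linear axes that start at 0, with early luteal (EL) libraries in blue on the left and post-ovulatory (PO) libraries in orange on the right; each bar is 1 library. CDC20, NCAPG, TOP2A and CCNB1 have 1 tall bar in post-ovulatory replicate 1, KIF2C has all 3 post-ovulatory bars above the early luteal ones, and AURKB, CENPE and SMC2 have early luteal bars above post-ovulatory replicate 2 or 3.

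The excess of post-ovulatory replicate 1 was the most general feature of the 38 genes. It was the highest of the 6 libraries in all 38, where it was the highest in 20.3% of all tested genes. Its level was at least 2 times that of every other library in 32 of the 38 and at least 4 times in 28 (73.7%), the factor of 4 being chosen after the values were seen. Over all tested genes that library was at least 4 times every other in 0.915% (164 genes), so these 28 were 17.1% of that set. None of the other 5 libraries was at least 4 times every other in any of the 38, and across all tested genes they were so in between 3 and 55 genes. The ratio of post-ovulatory replicate 1 to the next library had a median of 7.19 and ran from 1.35 for CENPE to 18.1 for NCAPG. Summed counts of the 38 genes were 6486, 4057 and 4697 in early luteal libraries, against 31227, 3128 and 12305 in post-ovulatory libraries, and the library with the excess was not the deepest.

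The spread within the post-ovulatory stage exceeded the difference between stages in 34 of the 38 genes, and the spread within early luteal tissue did in 17. Post-ovulatory replicate 1, the highest library in all 38, entered both the post-ovulatory spread and the difference, so the count of 34 rests largely on it. The share over all tested genes was not counted. The ratio of the highest to the lowest post-ovulatory library had a median of 9.22 and reached 43.4 in CDC20, whereas post-ovulatory replicates 2 and 3 lay within 1.5 times of each other in 30 of the 38. On a log2 scale the range had a median of 2.33 within early luteal tissue and 3.20 within post-ovulatory tissue, and the absolute difference between stage means a median of 2.57. Of the 38 genes, 11 (28.9%) had every early luteal library below every post-ovulatory one, where 9.57% of all genes did, and 0 had the reverse. These 11 were CCNB1, CCNB2, CDK1, PLK1, TTK, UBE2C, BIRC5, NDC80, KIF2C, KIF4A and TPX2. The count became 24 without early luteal replicate 1, where 17.9% of all genes did, and 19 without post-ovulatory replicate 2 (14.9%). Without post-ovulatory replicate 1 it stayed at 11, where 13.3% of all genes did.

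Early luteal libraries also differed from each other. Early luteal replicate 1 lay within or above the range of post-ovulatory replicates 2 and 3 in 26 of the 38 genes. Of the 38 genes, early luteal replicate 3 was the lowest of the 6 libraries in 22, early luteal replicate 2 in 11 and early luteal replicate 1 in 2, against post-ovulatory replicate 2 in 1 and post-ovulatory replicate 3 in 2. With post-ovulatory replicate 1 set aside, the highest library was early luteal replicate 1 in 7 genes and early luteal replicate 2 in 9, against post-ovulatory replicate 2 in 9 and post-ovulatory replicate 3 in 13. No gene had its highest remaining level in early luteal replicate 3. Smooth muscle markers (7 of 7 had a row) summed to 1586, 9028 and 12009 CPM in early luteal libraries, against 4278, 7033 and 3725 CPM in post-ovulatory libraries. The most muscle RNA was in early luteal replicates 2 and 3, the lowest libraries in 11 and 22 of the 38 genes. Over the 38 genes together, however, early luteal replicate 2 had the highest early luteal sum, at 548 CPM. Immediate early genes (7 of 7), which respond to tissue handling, summed to 361, 1166 and 1513 CPM in early luteal tissue, against 574, 794 and 267 CPM in post-ovulatory tissue. They too were highest in early luteal replicates 2 and 3. The part of muscle RNA and of the immediate early genes in the result was not tested.

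Without post-ovulatory replicate 1 the difference between stages was small. The median log2 fold change of the 38 genes was then -0.72 (1.65-fold lower), with 27 genes lower and 11 higher. The stage difference in the mean log2 of the summed levels (early luteal minus post-ovulatory) was 0.06 in place of -0.78. KIF2C remained lower at an unadjusted p under 0.05 (log2 fold change -2.08 ± 0.65), 1 gene of 38 where 1.42% of all genes were lower. After adjustment none of the 38 passed (lowest edgeR adjusted p = 0.985). The genes that turned positive were CCNA2, AURKB, BUB1, CENPE, NUF2, NUSAP1, HMGB2, ECT2, DLGAP5, MAD2L1 and SMC2. Of the 6 roles, cytokinesis moved closest to 0 (median -0.04), while the lowest median was that of the checkpoint genes (-0.92), in place of the entry genes (-2.83 with all 6 libraries).

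**Figure D3:**
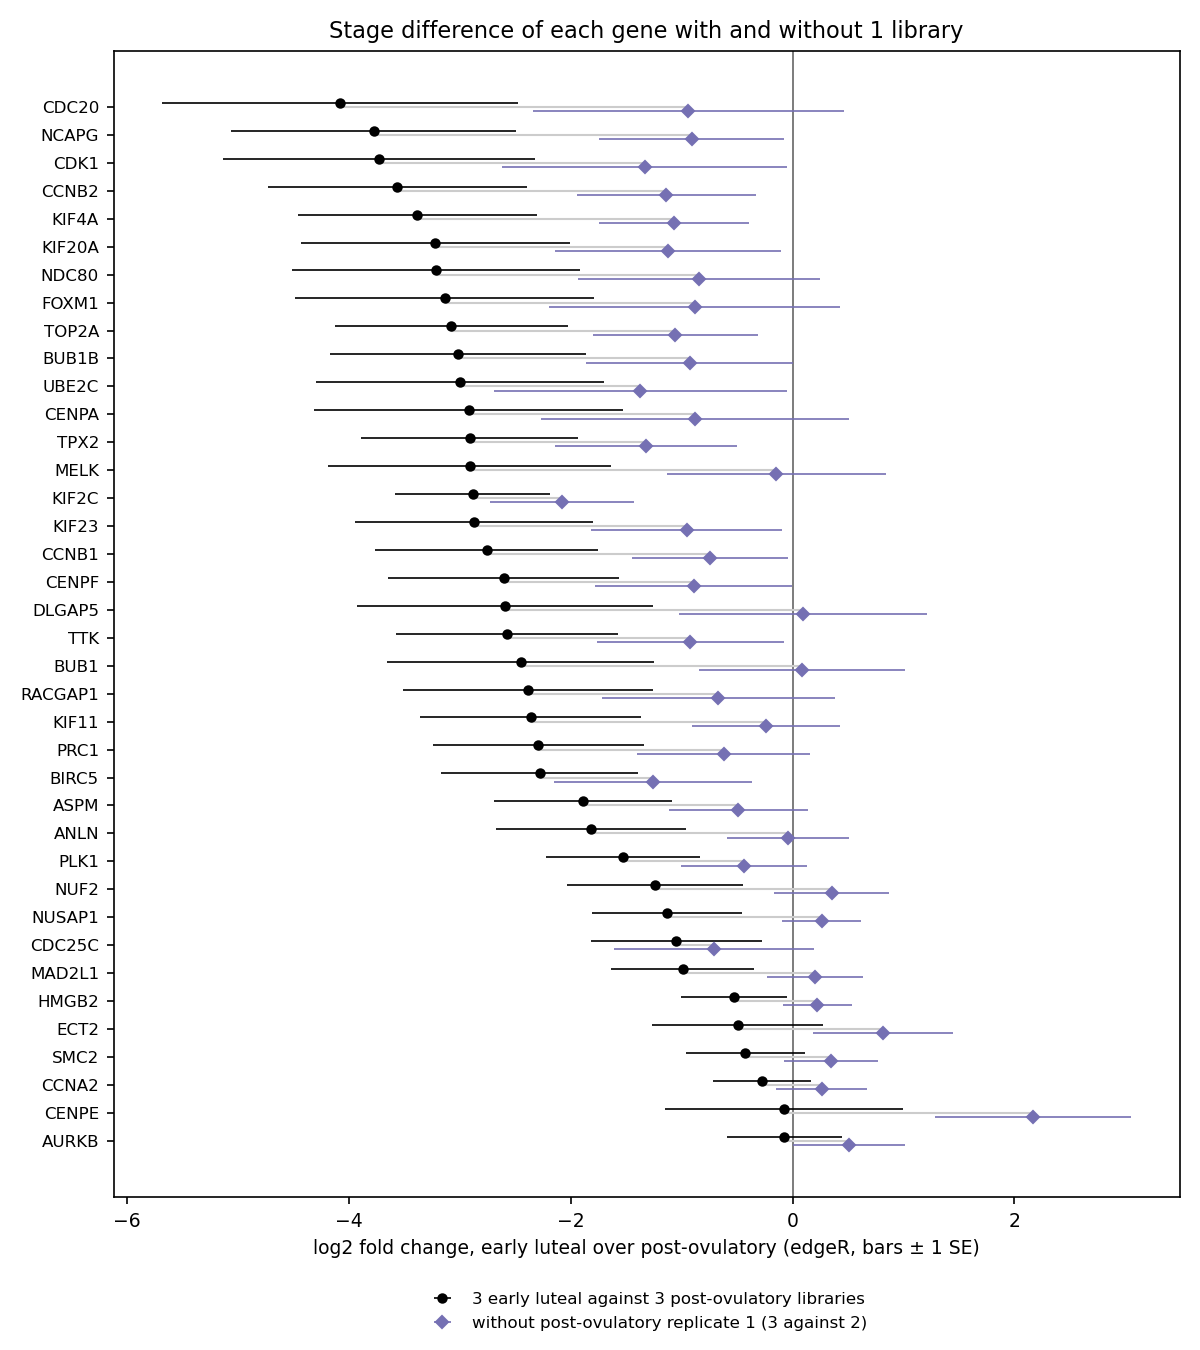
Log2 fold change of each gene, early luteal over post-ovulatory, from edgeR with bars of 1 SE either side, ordered by size; black circles use all 6 libraries and purple diamonds leave out post-ovulatory replicate 1. Black circles are all left of 0, from -4.08 to -0.07; purple diamonds lie nearer 0, 11 of them to its right, with KIF2C (-2.08) farthest left and CENPE (2.17) farthest right.

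Genes of the same process outside the 38 showed the same single library. Of 68 further mitosis genes tested, 60 were lower and 8 higher in early luteal tissue, 19 of them lower and 0 higher at an unadjusted p under 0.05, with a median log2 fold change of -1.46. SGO2, which protects centromeric cohesin, stood at 3.73, 3.65 and 2.65 CPM in early luteal tissue, against 76.6, 3.91 and 8.004 CPM in post-ovulatory tissue. SMC4, the condensin partner of SMC2, stood at 176, 412 and 182 CPM in early luteal tissue, against 822, 152 and 178 CPM in post-ovulatory tissue, with the same second peak in early luteal replicate 2. Post-ovulatory replicate 1 was the highest library in 59 of the 68 (20.3% of all tested genes). Without it the median was -0.38 and 0 of the 68 reached an unadjusted p under 0.05 in edgeR, in either direction. Of all genes 1.42% were then lower and 1.79% higher at that threshold.

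Genes of DNA replication and S phase were all lower (28 of 28 tested, median log2 fold change -1.74). At an unadjusted p under 0.05 in edgeR 15 of them were lower, where 3.54% of all genes were. MCM4, a subunit of the replicative helicase, stood at 13.04, 6.49 and 5.84 CPM in early luteal tissue, against 106, 23.4 and 18.1 CPM in post-ovulatory tissue. PCNA, the sliding clamp of DNA polymerase, stood at 31.9, 38.1 and 23.7 CPM in early luteal tissue, against 220.4, 39.8 and 40.3 CPM in post-ovulatory tissue. In both the stages did not overlap, and the step down from post-ovulatory replicate 1 to the other post-ovulatory libraries was the largest gap. Without post-ovulatory replicate 1 the list had 19 genes lower and 9 higher, with a median of -0.44. Of these, 2 genes, MCM3 and MCM4, stayed lower at an unadjusted p under 0.05 in edgeR, where 1.42% of all genes were lower.

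The regulators of the wave were mixed. Of 19 DREAM, MuvB, MYB and E2F genes tested, 14 were lower and 5 higher, with a median log2 fold change of -0.44. At an unadjusted p under 0.05 in edgeR 2 were lower, where 3.54% of all genes were. These 2 were E2F7 and E2F8, repressor members of the E2F family that are themselves made in cycling cells. E2F7 stood at 2.57, 2.16 and 0.730 CPM in early luteal tissue, against 146, 6.05 and 13.4 CPM in post-ovulatory tissue, without overlap. Without post-ovulatory replicate 1, E2F7 alone of the 19 was lower at an unadjusted p under 0.05, where 1.42% of all genes were. Its log2 fold change was then -2.44 ± 0.74 (edgeR, unadjusted p = 0.0136, adjusted p = 0.985). Post-ovulatory replicate 1 was the highest library in 12 of the 19 (20.3% of all tested genes). It was at least 4 times every other library in 5 of them (0.915% of all tested genes). Besides E2F7 and E2F8 these were MYBL2, at 6.79 times the next library, E2F1 (6.15 times) and E2F2 (4.35 times). RB1, the retinoblastoma protein, stood at 60.4, 97.0 and 71.6 CPM in early luteal tissue, against 67.6, 60.2 and 64.5 CPM in post-ovulatory tissue, with no excess in post-ovulatory replicate 1.

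**Figure D4:**
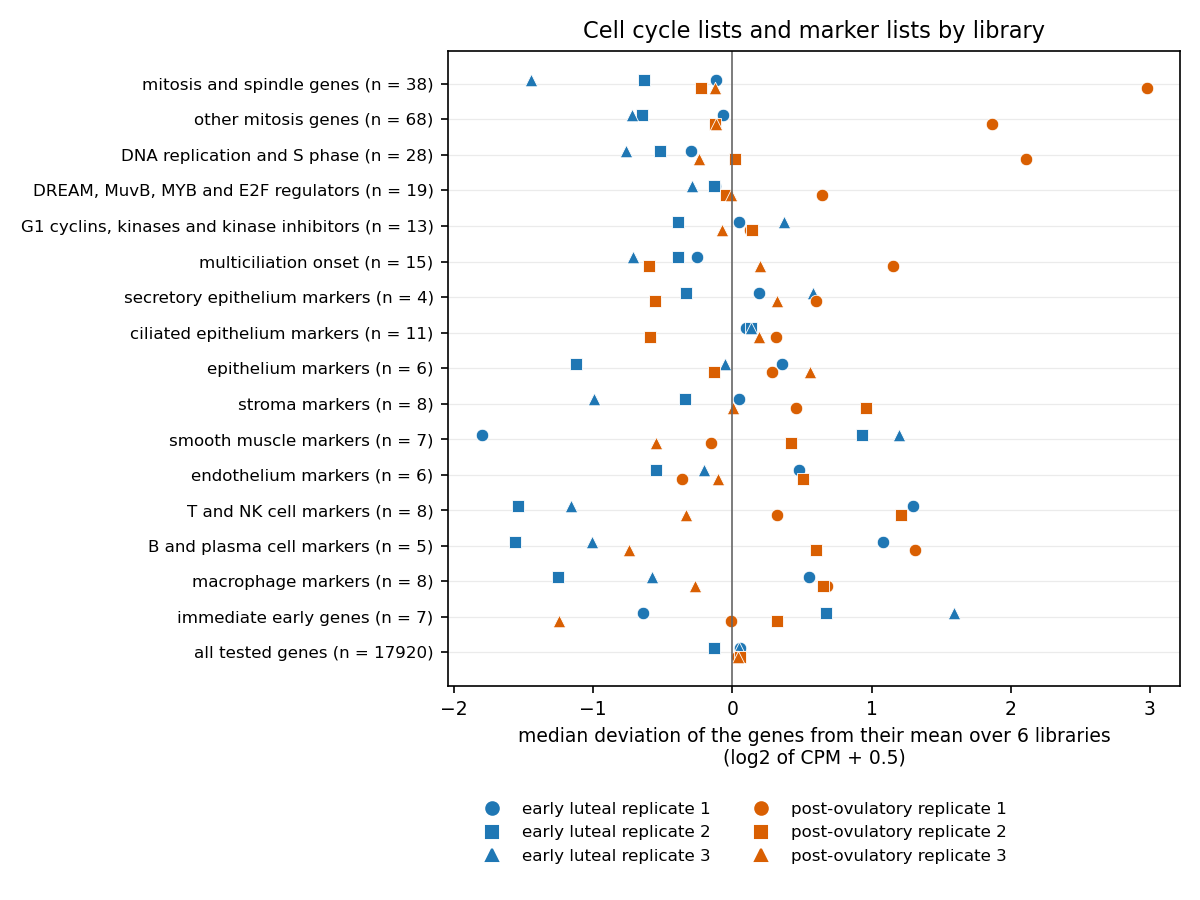
Median deviation of the genes of each list from their own mean over the 6 libraries, in log2 of CPM plus 0.5; each point is 1 library, blue for early luteal and orange for post-ovulatory, and n is the number of tested genes. Post-ovulatory replicate 1 (orange circles) stands at 2.98 for the 38 mitosis and spindle genes, 1.87 for other mitosis genes, 2.11 for DNA replication, 1.16 for multiciliation onset and 1.31 for B and plasma cell markers, and within 0.1 of 0 for all tested genes.

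Regulators of multiciliation shared the excess in part. Of 15 genes tested, 13 were lower and 2 higher in early luteal tissue, while the median log2 fold change was -0.32. At an unadjusted p under 0.05 in edgeR 6 were lower, where 3.54% of all genes were. MCIDAS, a coactivator that starts the multiciliated fate, stood at 1.03, 0 and 0 CPM in early luteal tissue, against 59.0, 0.378 and 4.50 CPM in post-ovulatory tissue; the early luteal libraries without a count allow up to 0.405 and 0.199 CPM. CCNO, a cyclin of centriole amplification, had 3.53, 3.78 and 1.79 CPM in early luteal tissue, against 95.6, 1.39 and 6.47 CPM in post-ovulatory tissue, and PLK4, the kinase that starts new centrioles in dividing and in multiciliated cells alike, 5.78, 6.62 and 1.79 CPM in early luteal tissue, against 178, 4.79 and 12.1 CPM in post-ovulatory tissue. Post-ovulatory replicate 1 was at least 4 times every other library in 6 of the 15, where it was in 0.915% of all tested genes. These 6 were CDC20B, MCIDAS, CCNO, PLK4, STIL and CEP152. GMNC, which acts upstream of MCIDAS, stood at 22.0, 24.5 and 12.999 CPM in early luteal tissue, against 72.3, 39.3 and 55.1 CPM in post-ovulatory tissue; all 3 post-ovulatory libraries were above all early luteal ones (log2 fold change -1.49 ± 0.36; edgeR, unadjusted p = 0.0028, adjusted p = 0.571). Without post-ovulatory replicate 1, 10 of the 15 were lower and 5 higher. GMNC alone was then lower at an unadjusted p under 0.05 in edgeR, where 1.42% of all genes were. The part of these genes in the levels of the 38 was not tested.

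Markers of other cells also varied between libraries. Macrophage markers (8 of 8 had a row) summed to between 54.5 and 152 CPM in early luteal libraries and between 84.9 and 167 CPM in post-ovulatory libraries, and T and NK cell markers (8 of 9) to between 9.68 and 68.5 CPM in early luteal libraries and between 20.5 and 62.7 CPM in post-ovulatory libraries. Post-ovulatory replicate 1 stood at 167 and 42.0 CPM, level with or below post-ovulatory replicate 2. B and plasma cell markers (7 of 7) summed to 263, 18.8 and 11.08 CPM in early luteal libraries, against 552, 86.4 and 13.5 CPM in post-ovulatory libraries. Nearly all of that was JCHAIN, the joining chain of secreted antibodies, at 252, 17.0 and 8.89 CPM in early luteal tissue, against 538, 77.7 and 10.4 CPM in post-ovulatory tissue. Post-ovulatory replicate 1 was the highest library in 4 of the 5 tested members of that list, at 2.13 times the next library in JCHAIN, 1.87 times in MZB1, 1.76 times in TNFRSF17 and 1.03 times in CD79A. Neutrophil markers (3 of 5) summed to at most 3.12 CPM. Secretory epithelium markers (5 of 7), mostly the glycoprotein OVGP1, summed to 1725, 2124 and 3766 CPM in early luteal tissue, against 9711, 1014 and 12085 CPM in post-ovulatory tissue, high in post-ovulatory replicates 1 and 3. Stroma markers (8 of 8) summed to between 691 and 1016 CPM in early luteal libraries and between 1164 and 2419 CPM in post-ovulatory libraries, with the highest sum in post-ovulatory replicate 2. The part of these cells in the levels of the 38 genes was not tested.

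The 38 genes are scattered over the genome. RefSeq's table for the build Sscrofa11.1 places all 38, on 17 chromosomes, with 8 on chromosome 1, the most on any. The closest pair, KIF20A and CDC25C on chromosome 2, lie 76.0 kb apart, so none of the 38 overlaps another. KIF2C spans 166556765 to 166577904 and CDC20 167886266 to 167890587 on chromosome 6, NCAPG 12759225 to 12807164 and CENPE 117888968 to 117965325 on chromosome 8. The multiciliation genes CDC20B, MCIDAS and CCNO, by contrast, adjoin each other between 34294486 and 34390611 on chromosome 16.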

How the data were processed

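Gene expression was measured in 6 ampulla libraries. Raw counts for each Ensembl gene were deposited by the authors as a single table. The submitters' processing notes name STAR, Trim Galore, FastQC 0.11.4 and the build Sscrofa11.1. How reads were assigned to genes, and whether strand was used, is not given in the sources used here; overlapping genes and near-identical copies are therefore uncertain. Counts were scaled by TMM and tested with edgeR 4.0.16 (quasi-likelihood, robust, two-sided; R 4.3.3) after filterByExpr, with Benjamini-Hochberg adjustment over 17920 genes and a threshold of 0.05. Alternatives were other scalings and filters, DESeq2 1.42.0, limma 3.58.1 voom, a replicate block and leaving out each library. The scripts were tested on simulated data. Symbols were matched through a table of Ensembl identifiers (15623 of 35670). Members and lists were chosen with earlier results of these data known. Per-library values are given for the 8 genes with the lowest p, the 6 with the highest CPM, the 4 with the widest range within a stage and a panel of regulators, and, from other lists, for genes of lowest p or highest CPM; values of other genes were added after their values were seen. Floors cover counting error only.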

Additional observations from a re-analysis of the deposited data

How the results depend on the processing

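The edgeR count of 0 called genes became 8 without a filter on low counts and 9 with limma voom and sample quality weights; DESeq2 called 174. Among the 38 mitosis genes DESeq2 called 1, with no p-value for 12 of them, and every other alternative called 0. The count at an unadjusted p under 0.05 (21) became 1 with voom, where 3.69% of all genes were lower, and 5 with quality weights (6.62%). Leaving out each library gave counts from 2, without post-ovulatory replicate 1, to 29. The share of all genes that were lower then ran from 1.42% to 5.68%. With each library left out, the median log2 fold change ran from -3.13 to -0.72. The stage difference in the mean log2 of the summed levels ran from -1.21 to 0.063. The count without overlap ran from 11 to 24, and the share of all genes from 12.5% to 17.9%. Of 532 alternative fold changes of single genes, 511 kept their sign and 21 reversed, 11 of the 21 without post-ovulatory replicate 1. Those of AURKB were 0.088 with voom, 0.31 with quality weights and 0.10 with the replicate block; those of CENPE 0.32, 0.94 and 0.96; and that of CCNA2 0.22 with quality weights. With each library left out, AURKB ran from -0.41 to 0.51, CENPE from -1.11 to 2.17, CCNA2 from -0.49 to 0.26, BUB1 from -3.13 to 0.083, NUF2 from -1.69 to 0.35, NUSAP1 from -1.54 to 0.26, HMGB2 from -0.82 to 0.22, ECT2 from -1.03 to 0.82, DLGAP5 from -3.16 to 0.10, MAD2L1 from -1.35 to 0.20 and SMC2 from -0.90 to 0.34. The cause of these reversals was not tested. With the replicate number as a block, 22 genes were lower at an unadjusted p under 0.05, where 3.52% of all genes were. The median was then -2.17 and 0 passed. Libraries of the same number correlated at 0.03, -0.09 and 0.14 in their deviations, and libraries of unlike number at between -0.18 and 0.09. With 3 libraries per stage, these values cannot decide whether the numbers pair them. The count at least 4 times every other library (28) was 28 with DESeq2 size factors and 25 with library totals, alternatives chosen after the data were seen. At or under the floor, where these depths cannot tell a level from 0, were 5 of the 38 genes in early luteal replicate 2 and 3 in early luteal replicate 3.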

Other observations

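A pair of kinase inhibitors that hold cells in G1, CDKN1B and CDKN1C, stood higher in early luteal tissue. Of 13 G1 cyclins, kinases and kinase inhibitors tested, early luteal tissue was lower in 8 and higher in 5, and the median log2 fold change was -0.33. At an unadjusted p under 0.05 in edgeR 2 were higher and 0 lower, where 3.57% of all genes were higher. CDKN1B, the kinase inhibitor p27, stood at 48.1, 136 and 82.0 CPM in early luteal tissue, against 37.9, 41.7 and 38.2 CPM in post-ovulatory tissue. All early luteal libraries were above all post-ovulatory ones, which lay close together, with no break at post-ovulatory replicate 1 (log2 fold change 1.18 ± 0.38; edgeR, unadjusted p = 0.0132, adjusted p = 0.664). CDKN1C, the related inhibitor p57, stood at 6.30, 6.62 and 4.05 CPM in early luteal tissue, against 3.04, 2.14 and 1.63 CPM in post-ovulatory tissue, again without overlap (1.32 ± 0.55; edgeR, adjusted p = 0.685). Across all genes, 1364 of the 17920 tested had every early luteal library above every post-ovulatory one. The highest CDKN1B level was in early luteal replicate 2, which was the highest library in 27.0% of all tested genes. Without post-ovulatory replicate 1 the log2 fold changes of CDKN1B and CDKN1C were 1.13 and 1.58. CDK2, the kinase of S phase entry, stood at 24.6, 10.4 and 19.3 CPM in early luteal tissue, against 54.5, 27.5 and 24.2 CPM in post-ovulatory tissue and had its highest level in post-ovulatory replicate 1, while CCND1, the D-type cyclin, had its lowest there, at 92.8, 77.3 and 142 CPM in early luteal tissue, against 68.4, 157 and 99.3 CPM in post-ovulatory tissue. None of these genes passed after adjustment.

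Among genes with at least 10 CPM in post-ovulatory replicate 1, ranked by the ratio of that library to the next, NCAPG was the 4th and CDC20 the 5th. The first was PCLAF, a partner of PCNA, and CDC20B, the multiciliation gene, followed it. BPI, a gene from none of the lists used here, was the 3rd, at 18.5 times the next library. It stood at 37.7 CPM in post-ovulatory replicate 1 and at no more than 2.04 CPM in any other library. This ranking was chosen after the values were seen.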
